A study of Mus musculus with 16 samples.

Results

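The urea cycle of mouse liver was described through 9 genes: 6 enzymes (Nags, Cps1, Otc, Ass1, Asl and Arg1), 2 mitochondrial carriers (Slc25a15 and Slc25a13) and the ammonia-releasing enzyme Glud1. Members were looked up by gene symbol, and all 9 were found among the 78317 genes listed and passed the filter that left 14781 genes for testing. The samples were whole-liver RNA from wild-type (wt) C57BL/6J mice in 4 groups of 4 libraries. Females on a high fat diet (60% of calories from fat) were compared with females on normal chow (4.5% of calories from fat), and males on the same diets were compared in the same way. All groups were obtained at an age of 6 weeks, received their diet for 10 weeks and carry the same batch number. Chow and high fat feed were bought from separate suppliers and may differ in other nutrients. The labels do not say that each library came from a separate mouse, nor at which hour tissue was taken, so the p-values below measure the spread between these libraries, which may be technical. Libraries held 22228115 to 41420589 expected counts.

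The urea cycle turns ammonia, which is toxic, into urea for excretion, and in mammals the full cycle runs in hepatocytes, mainly those around the portal vein. Its entry steps lie in the mitochondrion and its later steps in the cytosol, so intermediates must cross the inner mitochondrial membrane through carriers. Dietary protein, fasting, glucagon and glucocorticoids are the classical regulators of its enzymes.

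Promoter sequence was taken from RefSeq on build GRCm38.p6, as the 250 bases before each annotated start. This build is older than GRCm39, which the submitters' processing notes name, so the coordinates belong to the older build alone. Of the 9 members, 6 had an entry (Ass1, Slc25a13, Slc25a15, Nags, Glud1 and Otc), with 7 windows in all. Shown are Ass1, the member with the highest transcript level, Slc25a13, in which a searched motif was found, and the X-linked Otc, whose window was the least GC-rich of the 7. The Ass1 window lies at chr2:31470020-31470269 on the plus strand, that of Slc25a13 at chr6:6217174-6217423 on the minus strand, and that of Otc at chrX:10252055-10252304 on the plus strand. Sequences run 5′ to 3′ toward the start, and capitals mark the motif match.
Ass1: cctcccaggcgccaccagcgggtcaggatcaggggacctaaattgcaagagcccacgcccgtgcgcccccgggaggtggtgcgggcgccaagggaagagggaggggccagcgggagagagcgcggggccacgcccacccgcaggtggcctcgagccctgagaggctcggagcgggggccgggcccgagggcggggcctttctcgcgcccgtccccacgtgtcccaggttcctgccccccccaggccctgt
Slc25a13: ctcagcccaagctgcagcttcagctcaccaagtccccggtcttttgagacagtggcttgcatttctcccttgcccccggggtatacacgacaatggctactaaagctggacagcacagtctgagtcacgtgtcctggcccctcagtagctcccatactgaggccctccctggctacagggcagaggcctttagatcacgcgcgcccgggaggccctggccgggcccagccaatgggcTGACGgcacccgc
Otc: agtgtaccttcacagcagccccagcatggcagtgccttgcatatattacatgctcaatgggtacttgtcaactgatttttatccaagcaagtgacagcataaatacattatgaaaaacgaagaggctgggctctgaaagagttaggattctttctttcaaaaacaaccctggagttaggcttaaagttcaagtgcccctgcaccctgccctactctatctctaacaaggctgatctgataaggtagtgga

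The window of Ass1 was 75.6% G or C, that of Slc25a13 62.8% and that of Otc 43.6%, against a median of 52.4% over all 32851 windows of the same length. Motifs of factors known to act on this pathway were searched on both strands. The core of the cAMP response element was spelled TGACG, and it is also contained in the full element, spelled TGACGTCA. Of the 7 member windows, that of Slc25a13 held the core, at position -13 from the start, and 17.8% of all windows held it.

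The other motifs were matched nowhere in the member windows. These were the full cAMP response element (1.55% of all windows), the C/EBP forms TTGCNNCAA (1.74%) and TTGCNCAA (2.61%), the HNF4 form CAAAGTCCA (0.384%), the core of the glucocorticoid response element spelled TGTTCT (16.1%), and the TATA box, for which the letters searched were TATAAA (12.4%).

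Levels between genes were compared in TPM, which is scaled per transcript length. Ass1, the synthase that joins citrulline to aspartate, was the most abundant member in each of the 16 libraries, with a mean of 2373 TPM and a range of 1353 to 3494. Arg1, which splits arginine into urea and ornithine, came next in all 16 (mean 1465 TPM, 966 to 1954). Cps1, which makes carbamoyl phosphate from ammonia and commits nitrogen to the cycle, was in the third place in all 16 (mean 714 TPM, 520.3 to 935).

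Glud1, Otc and Asl shared the next places, with means of 427, 419 and 367 TPM, and each of these genes took more than 1 rank among the libraries. The carriers Slc25a13 and Slc25a15 averaged 129.75 and 128.6 TPM and exchanged places between libraries. Nags, whose product N-acetylglutamate is the obligatory activator of Cps1, was the lowest member in all 16 libraries at 16.2 TPM on average (12.2 to 20.8). The transcripts of the cytosolic enzymes Ass1, Asl and Arg1 made up 61.9% to 75.5% of the summed TPM of the 9 genes.

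**Figure D1:**
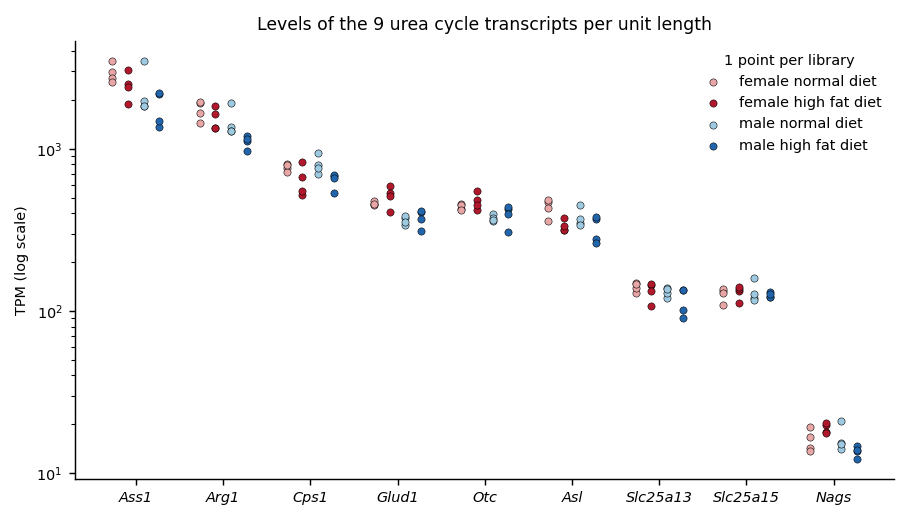
TPM of each member (log axis) in each of the 16 libraries, coloured by group, ordered by mean level. Ass1, Arg1 and Cps1 hold the top places and Nags the lowest place in each library, while Glud1, Otc and Asl, and the carriers Slc25a13 and Slc25a15, overlap.

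Summed over the 9 genes, the transcripts amounted to 7069 ± 587 TPM (SD, n = 4) in females on the normal diet and 6253 ± 848 on the high fat diet. In males the sums were 5938 ± 1260 TPM on the normal diet and 4905 ± 696 on the high fat diet. The group ranges of the sum overlapped between diets in each sex, from 5391 to 7422 TPM against 6557 to 7802 in females and from 4220 to 5560 TPM against 5222 to 7822 in males.

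The diet comparison in females used counts as CPM, the count relative to library size, with library sizes adjusted by TMM (a trimmed mean of log ratios between libraries), and the quasi-likelihood test of edgeR. Of the 9 members, 2 passed an adjusted p of 0.05, Cps1 and Asl, both lower on the high fat diet. Among all genes tested 11.5% passed in either direction and 5.76% passed as lower. Across the members the median log2 fold change was -0.32, against 0.00 over all genes, and 8 of 9 estimates lay below 0 on this scale. The estimates are differences between bulk tissue samples, in which fewer cells of a type and less RNA per cell cannot be told apart.

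At the entry to the cycle, Cps1 (ENSMUSG00000025991.9) measured 2083, 2638, 2299 and 3142 CPM in the 4 female high fat diet libraries and 3777, 3570.0, 3487 and 3699.8 CPM in the 4 normal diet libraries. All high fat diet libraries were below all normal diet libraries, and they were more spread out. This gave a log2 fold change of -0.52 ± 0.13 (SE; edgeR adjusted p = 0.01793; 95% interval -0.80 to -0.24), so that Cps1 fell by 30.1%. This call was lost without high fat diet replicate 1 (adjusted p = 0.0526), normal diet replicate 1 (0.0562) or normal diet replicate 4 (0.0529), and over all alternatives the adjusted p ran from 0.00124 to 0.157.

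Nags (ENSMUSG00000048217.12) measured 26.1, 23.2, 24.2 and 25.5 CPM in females on the high fat diet and 31.2, 23.1, 23.6 and 20.9 CPM on the normal diet. The high fat diet libraries lay inside the range of the normal diet ones. Its log2 fold change was 0.00 ± 0.13 (95% interval -0.26 to 0.27; adjusted p = 0.9907), and it was 0.19 on library totals and 0.25 on TPM. Nags shares exon sequence with an antisense gene, Gm11586, for which at most 19.3 counts were listed in a library. Whether counting used the strand is not given in the sources used here, so reads of this pair cannot be told apart.

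Otc (ENSMUSG00000031173.14), which joins carbamoyl phosphate to ornithine to give citrulline, ranged from 646 to 805 CPM in females on the high fat diet and from 748 to 879 CPM on the normal diet. These ranges overlapped. Its log2 fold change was -0.13 ± 0.12 with a 95% interval of -0.39 to 0.13 (adjusted p = 0.5319), and this sign turned to 0.06 on library totals and 0.11 on TPM.

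Among the cytosolic enzymes, Asl (ENSMUSG00000025533.16), which cleaves argininosuccinate into arginine and fumarate, measured 475, 389, 412 and 403 CPM in females on the high fat diet and 739, 755, 485 and 633 CPM on the normal diet. The groups did not overlap, but normal diet replicate 3 lay close to high fat diet replicate 1. For Asl the log2 fold change was -0.64 ± 0.16 (edgeR adjusted p = 0.01473; 95% interval -0.97 to -0.31), so that Asl fell by 35.7%. Asl was not called when normal diet replicate 1 (adjusted p = 0.0583) or replicate 2 (0.0608) of the females was left out, and its adjusted p ran from 0.00185 to 0.0719 over all alternatives.

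Ass1 (ENSMUSG00000076441.10) measured 2644, 2499, 2095 and 3101 CPM in females on the high fat diet and 3875, 4536, 3127 and 3184 CPM on the normal diet. The groups did not overlap, although the highest high fat diet library came close to the 2 lower normal diet libraries. The log2 fold change of -0.51 ± 0.21 had a 95% interval of -0.96 to -0.06 and did not pass the adjusted threshold (edgeR adjusted p = 0.1281). It passed when females alone were fitted (adjusted p = 0.049), and over all alternatives the adjusted p ran from 0.049 to 0.427.

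Arg1 (ENSMUSG00000019987.10) measured 1466, 1191, 1249.6 and 1572 CPM in females on the high fat diet and 2121, 2162, 1388 and 1723 CPM on the normal diet. Normal diet replicate 3 fell among the high fat diet libraries, so the groups overlapped. Arg1 thus had a log2 fold change of -0.43 ± 0.16 (edgeR adjusted p = 0.08291). It passed in DESeq2 (adjusted p = 0.0477) and in edgeR without normal diet replicate 3 (adjusted p = 0.0409), and the range over all alternatives was 0.0409 to 0.431.

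Of the carriers, Slc25a13 (ENSMUSG00000015112.16), or citrin, which exports the aspartate used by Ass1, measured 226, 300.1, 321 and 266 CPM in females on the high fat diet and 337, 362, 336 and 358 CPM in those on chow. The groups did not overlap. For citrin the log2 fold change was -0.32 ± 0.14 (edgeR adjusted p = 0.1317). Slc25a15 (ENSMUSG00000031482.10), which exchanges ornithine for citrulline, ranged from 269 to 339.6 CPM against 281 to 404 CPM, overlapping, with a log2 fold change of -0.21 ± 0.12 (adjusted p = 0.2817) that turned to 0.04 on TPM.

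Glud1 (ENSMUSG00000021794.17), which releases ammonia from glutamate, ranged from 961 to 1357 CPM in females on the high fat diet and from 1209 to 1337 CPM on the normal diet, so the normal diet range lay inside the high fat diet range. Its log2 fold change was -0.10 ± 0.13 (95% interval -0.36 to 0.17; adjusted p = 0.6667), and its sign turned to 0.09 on library totals and 0.14 on TPM. In females 4 of 9 members (Cps1, Ass1, Asl and Slc25a13) had all high fat diet libraries below all normal diet libraries. Over all tested genes 9.55% were separated in this direction and 18.3% in either direction.

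**Figure D2:**
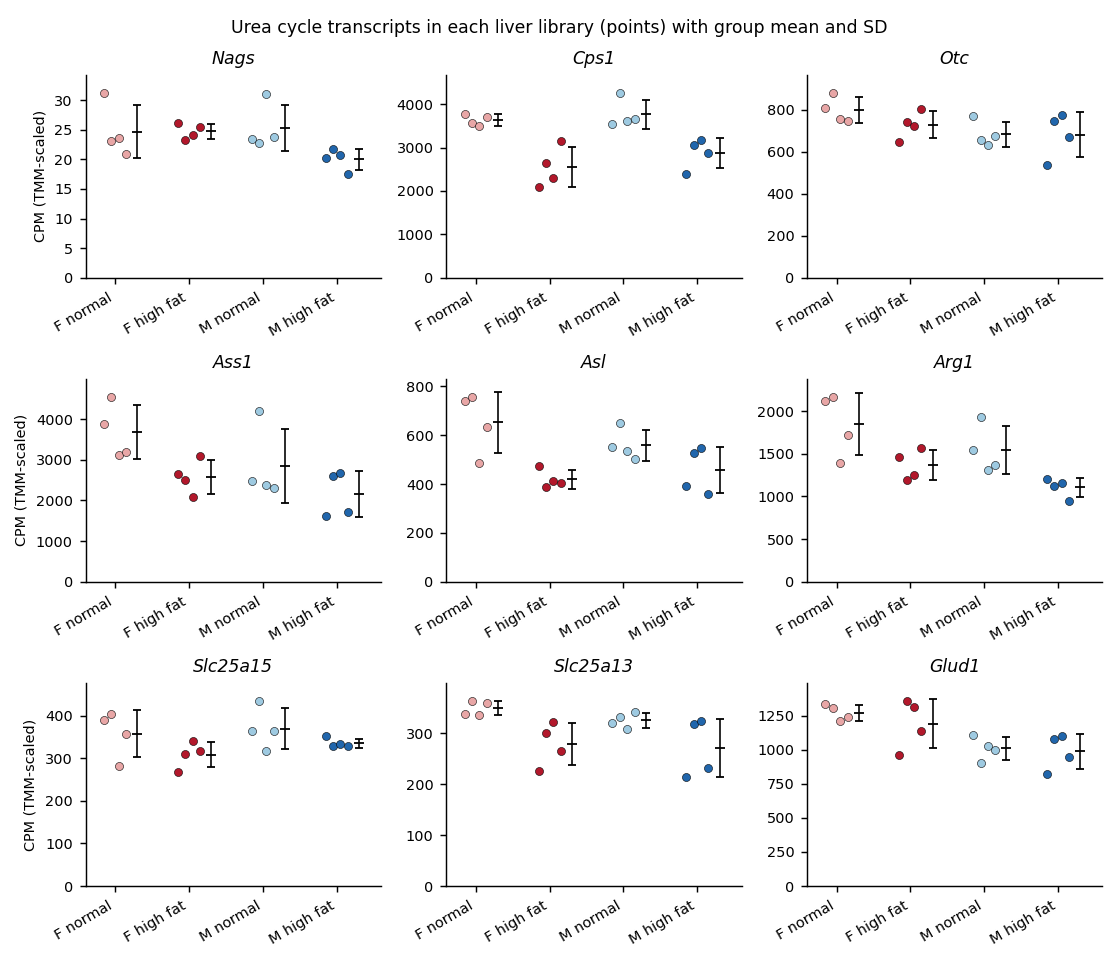
TMM-scaled CPM of the 9 members, with 1 point per library and the group mean with its SD (n = 4) beside the points; each axis starts at 0. Female Cps1, Ass1, Asl and Slc25a13, and male Cps1, Arg1 and Nags, have no high fat diet point at or above the lowest normal diet point on this scale.

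The level assigned to the female response depended on how libraries were put on a common scale. The median log2 fold change of all tested genes in females was 0.00 after TMM, 0.19 on library totals without scaling and 0.15 on log2(TPM + 1). On library totals Cps1 was at -0.32 (adjusted p = 0.104) and Asl at -0.44 (adjusted p = 0.0565), and neither was called. With limma on log2(TPM + 1) they were at -0.29 (adjusted p = 0.155) and -0.37 (adjusted p = 0.0697).

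Relative to the median of all genes, Cps1 was at -0.52 after TMM and on library totals and at -0.43 on TPM, and Asl was at -0.64, -0.63 and -0.52. In TPM as deposited the female diet groups overlapped for Cps1 (520.3 to 828.7 TPM against 718 to 808) and for Asl (314 to 376 TPM against 358 to 482). Ass1 (1898 to 3067 TPM against 2586 to 3452) and Slc25a13 (107.5 to 146 TPM against 129 to 148) overlapped too, so that 0 of 9 members were separate in females on TPM against 4 on TMM-scaled CPM. The split of all female calls moved with the scale as well, from 848 higher and 852 lower after TMM to 2318 higher and 372 lower on library totals and 2684 higher and 286 lower on log2(TPM + 1).

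Estimates below 0 numbered 8 of 9 in females after TMM, 6 on library totals and 5 on TPM. Relative to the median of all genes they numbered 8 of 9 on each of these scales, with Nags the exception. In males 9 of 9 were below 0 after TMM and 7 on library totals and on TPM, and relative to the median of all genes 9 of 9 were below on TMM and totals and 8 on log2(TPM + 1).

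**Figure D3:**
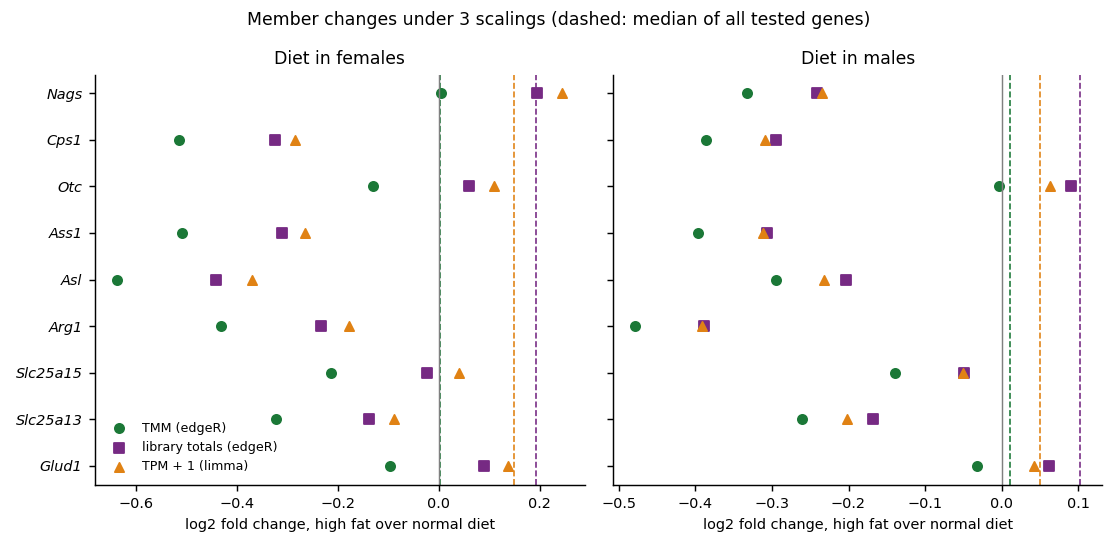
Log2 fold change (high fat over normal diet) of each member in females and males under TMM, library totals and log2(TPM + 1), with a dashed line at the median of all tested genes for each scale. In females the library-total and TPM values sit to the right of the TMM values together with their dashed lines at 0.19 and 0.15, and Otc and Glud1 lie above 0 on these scales and below 0 after TMM.

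In males none of the 9 members passed the adjusted threshold in edgeR, where 11.4% of all genes passed. At an unadjusted p under 0.05 there were 3 (Arg1, Cps1 and Nags), and DESeq2 called 2 (Cps1 at adjusted p = 0.0179 and Arg1 at 0.0212). Over all alternatives the adjusted p in males ran from 0.0179 to 0.174 for Cps1 and from 0.0212 to 0.171 for Arg1. The median log2 fold change was -0.29, against 0.01 over all genes.

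Arg1 had the lowest estimate in males. It measured 1199.5, 1117, 1162 and 944 CPM on the high fat diet and 1547, 1933, 1315 and 1369 CPM on the normal diet. The groups did not overlap. The log2 fold change was -0.48 ± 0.16 (edgeR adjusted p = 0.05777; 95% interval -0.81 to -0.15).

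Cps1 in males measured 2400.1, 3066, 3171 and 2886 CPM on the high fat diet and 3539, 4258, 3618 and 3651 CPM on the normal diet. The groups did not overlap, and normal diet replicate 2 stood above the rest. Male Cps1 had a log2 fold change of -0.39 ± 0.13 (edgeR adjusted p = 0.0665; 95% interval -0.67 to -0.11).

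Nags in males measured 20.3, 21.7, 20.7 and 17.5 CPM on the high fat diet and 23.4, 22.9, 31.2 and 23.8 CPM on the normal diet, again with no overlap. Normal diet replicate 3 was well above its group. The log2 fold change was -0.33 ± 0.13 (edgeR adjusted p = 0.09698). Separation of this kind, with the high fat diet lower, was seen in 3 of 9 members (Arg1, Cps1 and Nags), against 9.13% of all genes and 18.5% in either direction. On TPM 2 members were separate in males, Arg1 and Cps1, since Nags overlapped (12.2 to 14.7 TPM against 14.1 to 20.8).

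Ass1 in males measured 1607, 2606, 2683 and 1726 CPM on the high fat diet and 2465, 4195, 2387 and 2307 CPM on the normal diet. The groups overlapped, with high fat diet replicates 2 and 3 high and replicates 1 and 4 low. Asl also had replicates 2 and 3 above replicates 1 and 4 in the high fat diet group, at 391, 525, 547 and 360.0 CPM, against 551, 649, 534 and 503 CPM on the normal diet. Log2 fold changes were -0.40 ± 0.21 for Ass1 (edgeR adjusted p = 0.2379) and -0.29 ± 0.16 for Asl (adjusted p = 0.2354), with an interval for Asl of -0.62 to 0.04.

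Slc25a13 in males was at 214, 317, 323 and 231 CPM on the high fat diet, again with replicates 2 and 3 above replicates 1 and 4, and at 309 to 341 CPM on the normal diet, which overlapped (log2 fold change -0.26 ± 0.14, edgeR adjusted p = 0.2271). Male high fat diet replicates 2 and 3 resembled each other over the whole transcriptome too. Their chi-square statistic per gene was 4.07, where sampling noise alone gives about 1, and the next closest pair of that group stood at 55.6. They differed by more than sampling noise, which does not show whether they came from separate mice. They were counted as 2 samples, so spreads and separations in this group may rest on fewer than 4 independent samples. Averaging them left the number of members called in each comparison as it was, but in males and in the interaction none was called before. Over all genes, interaction calls went from 100 to 58 on averaging.

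The other male estimates were near 0. Otc ranged from 534 to 776 CPM on the high fat diet and from 632 to 770.0 CPM on the normal diet, with a log2 fold change of -0.00 (95% interval -0.26 to 0.26; edgeR adjusted p = 0.9892), which was 0.09 on library totals and 0.06 on TPM. Glud1 was at -0.03 (adjusted p = 0.9058), and at 0.06 on library totals and 0.04 on TPM, while Slc25a15 was at -0.14 (adjusted p = 0.5065).

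**Figure D4:**
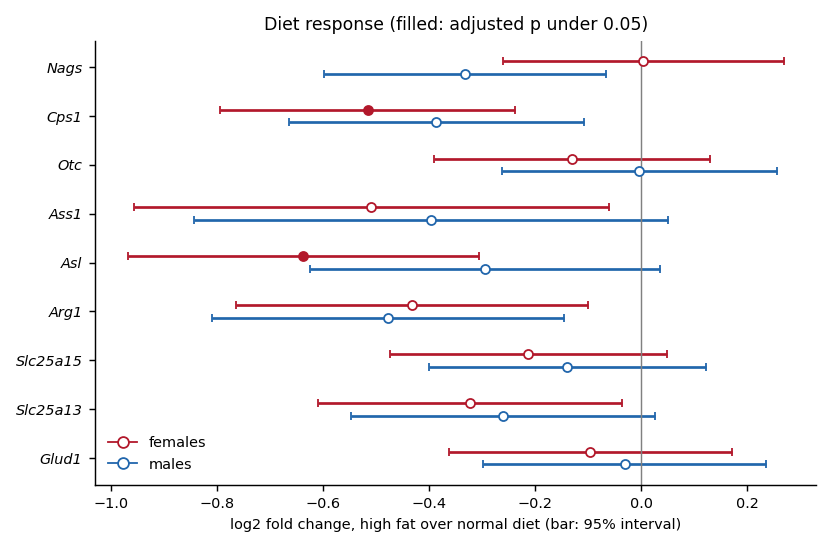
Log2 fold change of each member on the high fat diet over the normal diet after TMM scaling, with 95% intervals, in females and males; filled points passed an adjusted p of 0.05. Cps1 and Asl in females are filled, and Nags in females sits at 0.00 while in males it sits at -0.33.

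Whether the diet response differed between the sexes was tested by the interaction, females minus males. None of the 9 members passed in edgeR, none had an unadjusted p under 0.05 and none passed in DESeq2, while 0.677% of all genes passed in edgeR. The largest estimates were those of Asl (-0.34 ± 0.22, adjusted p = 0.5535) and Nags (0.34 ± 0.18, adjusted p = 0.4494, 95% interval -0.04 to 0.71). The call of Cps1 and Asl in females and not in males is thus not shown to be a difference between the sexes. After TMM 2 interaction estimates lay above 0, against 5 on library totals and 8 on TPM.

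Between the sexes, no member passed on the normal diet, where 15.7% of all genes passed in edgeR. Glud1 came nearest, with 1337, 1308, 1209 and 1242 CPM in females and 1111, 906, 1027 and 998 CPM in males. All female libraries were above all male libraries, as for 9.86% of all genes (22% in either direction). The log2 fold change, female over male, was 0.33 ± 0.13 (edgeR adjusted p = 0.08127). It was the member with an unadjusted p under 0.05, and it passed in DESeq2 (adjusted p = 0.0351), on library totals (0.048) and when only the normal diet groups were fitted (0.028), with a range of 0.028 to 0.18 over all alternatives.

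On the high fat diet no member passed between the sexes, where 20.4% of all genes passed in edgeR and DESeq2 called no member. Nags measured 23.2 to 26.1 CPM in females and 17.5 to 21.7 CPM in males. It was the member whose groups did not overlap, as for 10.3% of all genes with females higher (22.7% in either direction). Its log2 fold change was 0.30 ± 0.13 (edgeR adjusted p = 0.09743), the unadjusted p of 2 members was under 0.05, and on library totals Nags and Glud1 passed. On TPM these genes and Arg1 passed, with log2 fold changes of 0.45 for Nags (adjusted p = 0.0146), 0.44 for Glud1 (0.00995) and 0.48 for Arg1 (0.0305). The median of all genes was 0.12 on library totals and 0.10 on log2(TPM + 1), against -0.01 after TMM. Relative to that median, the TPM values were 0.35 for Nags, 0.33 for Glud1 and 0.37 for Arg1. The share of all genes called on these scales is not given here. Over all alternatives the adjusted p reached 0.243 for Nags, 0.31 for Glud1 and 0.364 for Arg1.

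Ratios within a library do not depend on its scale. The pair below was chosen after the values were seen and has no test. Otc relative to Cps1, the consecutive mitochondrial steps, was 0.658 to 0.814 in TPM in females on the high fat diet and 0.523 to 0.638 on the normal diet. In males it was 0.576 to 0.634 against 0.400 to 0.564. The diet groups were separate in each sex, but a ratio to Cps1 that was higher in all high fat diet libraries was found for 37.5% of tested genes in females and 31.6% in males.

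Members varied together within groups to different degrees. With group means removed, Pearson's r between pairs of members over the 16 libraries ran from -0.222 (Arg1 with Glud1) to 0.802 (Slc25a13 with Glud1), and Ass1 with Asl stood at 0.77. These are descriptions over libraries that share depth and scaling, with no test.

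Close relatives of the members were scarce in these livers. Slc25a12, the other aspartate and glutamate carrier, averaged 2.70 to 3.84 TPM over the groups, far below Slc25a13. Its log2 fold change, female over male, was -0.45 on the normal diet (edgeR adjusted p = 0.0351, lost in 8 of 17 alternatives). On the high fat diet it was -0.52 (edgeR adjusted p = 0.0152, lost in 6 of 17). Of all genes, 15.7% and 20.4% were called in these comparisons. Arg2, the mitochondrial arginase, had 3 to 23 counts per library, and Slc25a2, the second ornithine carrier, had 0 to 8 counts and was not tested. RSEM shares ambiguous reads between relatives, and their sequences were not compared here.

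Genes around the cycle were taken from lists of amino acid metabolism, zonation and regulators. The counts below are read against all tested genes. After TMM 5.74% of these were called higher and 5.76% lower for diet in females, and 6.03% higher and 5.36% lower in males. In females 2318 of the 14781 genes were called higher and 372 lower on library totals. On log2(TPM + 1) 2684 were called higher and 286 lower. List counts on these scales are read against these numbers, and the share of all genes called for diet in DESeq2 is not given here. Of 17 genes that supply nitrogen or carry amino acids, 1 rose and 1 fell in females and 2 rose and 1 fell in males, while DESeq2 gave 3 that fell in females and 4 in males. Slc38a2, a sodium-coupled neutral amino acid transporter, averaged 95.6 ± 29.7 CPM (SD, n = 4) in high fat fed females and 199.5 ± 29.8 in chow fed females, a log2 fold change of -1.06 ± 0.18 (edgeR adjusted p = 0.0010733), and fell in males by 0.80 on the log2 scale (adjusted p = 0.007224). The riser in females was the cationic amino acid transporter Slc7a1 (1.16 ± 0.34, adjusted p = 0.033558), which was named after its value was seen, averaged a log2 CPM of -0.26 and was not called in 7 of 17 alternatives.

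Glul, glutamine synthetase, which takes up ammonia that escapes the urea cycle, averaged 1781 ± 221 CPM in high fat fed males and 892 ± 200.03 in chow fed males. It rose by 1.00 ± 0.19 on the log2 scale in males (edgeR adjusted p = 0.0027236). In females its log2 fold change was 0.12 (adjusted p = 0.714). The interaction of Glul did not pass (-0.87, edgeR adjusted p = 0.158) and was called in 0 of 24 alternatives. Rhbg, an ammonia transporter, had a log2 fold change of 0.76 ± 0.19 in males (adjusted p = 0.01592), a call lost without male high fat diet replicate 4 (adjusted p = 0.0662). In females Rhbg was at -0.355 (edgeR adjusted p = 0.231).

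Of 13 tested genes of arginine and ornithine metabolism, none rose, 1 fell in females and 2 fell in males after TMM, while in females 3 rose on library totals and 4 on log2(TPM + 1). Amd1, S-adenosylmethionine decarboxylase of polyamine synthesis, had log2 fold changes of -0.70 ± 0.14 in females (edgeR adjusted p = 0.0043448) and -1.01 ± 0.14 in males (adjusted p = 0.00023944). Odc1, ornithine decarboxylase, had a log2 fold change of -0.39 in males (adjusted p = 0.0318), which was not called in 11 of 17 alternatives.

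Of 18 amino acid catabolism enzymes, 1 rose and 3 fell in females and 2 fell in males, while on log2(TPM + 1) 3 rose and 2 fell in females and in DESeq2 4 fell in males. Tat, tyrosine aminotransferase, averaged 611 ± 139.5 CPM on the high fat diet against 2150 ± 342 on the normal diet in females and 799 ± 86.9 against 2134 ± 516 in males. Its log2 fold changes were -1.81 ± 0.19 (edgeR adjusted p = 1.6335e-05) and -1.42 ± 0.19 (adjusted p = 0.00012477). Tdo2, tryptophan dioxygenase, fell by 0.74 on the log2 scale in females (adjusted p = 0.0114) and by 0.89 in males (adjusted p = 0.0035071). The third to fall in females was Bckdhb, a subunit of the branched-chain keto acid dehydrogenase (-0.33, adjusted p = 0.03194), a call lost in 11 of 17 alternatives.

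Cbs, cystathionine beta-synthase, averaged 254 ± 51.7 CPM on the high fat diet against 160.2 ± 8.65 on the normal diet in females and 148 ± 11.5 against 212 ± 76.8 in males. Its interaction estimate was 1.19 ± 0.26 (edgeR adjusted p = 0.0419), the sole interaction call over these lists in edgeR, and it was lost in 12 of 24 alternatives. The rise of Cbs in females (0.67, adjusted p = 0.026219) was lost in 4 of 17.

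The 12 regulators listed were reported to act on urea cycle genes or on their protein products. Of these, 1 rose and 4 fell in females and 1 rose and 2 fell in males. On library totals and on log2(TPM + 1), 3 rose and 3 fell in females. The glucocorticoid-responsive factor Klf15 had log2 fold changes of -0.65 ± 0.16 in females (edgeR adjusted p = 0.015183, lost in 4 of 17 alternatives) and -0.90 ± 0.16 in males (adjusted p = 0.0017277). The hepatocyte factor Hnf4a was at -0.60 in females (adjusted p = 0.0033112) and -0.47 in males (adjusted p = 0.013928, lost in 3 of 17).

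Foxo1 was at -1.01 in females (edgeR adjusted p = 0.00038234) and -0.30 in males (adjusted p = 0.2041). Cebpb was at -1.15 in females (adjusted p = 0.0021754) and 0.10 in males (adjusted p = 0.808). In edgeR the interaction did not pass for Foxo1 (-0.72, adjusted p = 0.134) or for Cebpb (-1.25, adjusted p = 0.0599), and Cebpb passed in 4 of 24 alternatives, DESeq2 among them, with a range of 0.0047 to 0.139. DESeq2 also called the interaction of Cebpa. The risers were Cebpa in females (0.35, adjusted p = 0.034255, lost in 7 of 17) and the mitochondrial deacylase Sirt5 in males (0.43, adjusted p = 0.031016, lost in 9 of 17).

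Zonation genes mark hepatocytes by their place between the portal and the central vein. Of 11 periportal genes, 2 fell in each sex, Pck1 and Cyp2f2. Over the alternatives 2 to 4 fell in females, while in males 1 to 2 fell and 0 to 1 rose. Etnppl (adjusted p = 0.00277) and Sds (0.0309) were called when females alone were fitted in edgeR. Pck1, which commits carbon to gluconeogenesis, was at -1.34 in females (edgeR adjusted p = 0.0003836) and -0.73 in males (adjusted p = 0.021878, lost in 6 of 17 alternatives). Cyp2f2, a portal-side cytochrome P450, was at -0.92 and -0.73.

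Of 11 pericentral genes, 6 rose and none fell in males (Glul, Lgr5, Gulo, Lect2, Axin2 and Rhbg), with a list median of 0.58 against 0.01 over all genes. Axin2 was not called without male normal diet replicate 2 (adjusted p = 0.0539). In females 1 rose (Lgr5, 1.29) and 1 fell (Cyp27a1, -0.74), with a median of -0.08. Glul and Rhbg stand in this list and in the nitrogen list, and no gene of the pericentral list passed the interaction test in edgeR. Rhbg came nearest (-1.11, adjusted p = 0.0668) and passed in 4 of 24 alternatives, DESeq2 among them, with a range of 0.0102 to 0.152.

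**Figure D5:**
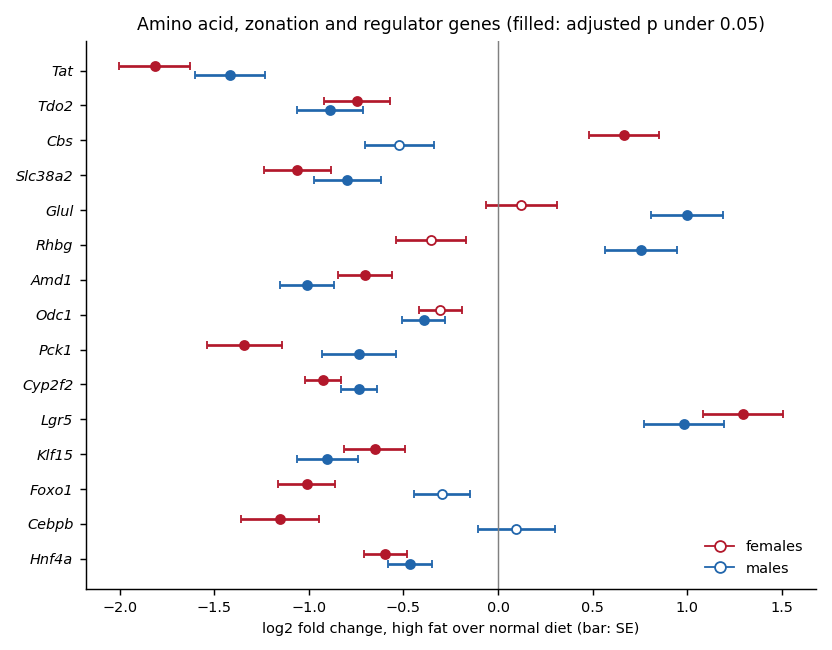
Log2 fold change on the high fat diet over the normal diet with its SE, after TMM scaling, for 15 genes from the lists around the urea cycle; filled points passed an adjusted p of 0.05. Tat lies lowest in each sex, and Glul and Rhbg are filled in males and open in females.

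Some cell markers moved beside these results. Over 6 hepatocyte markers the summed level was 82660 to 101900 CPM in females on the high fat diet and 105100 to 118800 on the normal diet, and 60590 to 76790 against 83930 to 97260 CPM in males, with Alb the main contributor and no overlap in either sex. Of single genes, 9.55% in females and 9.13% in males were separated with the high fat diet lower. Of these 6 markers, none was called in females and 2 fell in males (Alb and Serpina1a). By group mean, Apoa1 and Ttr were higher on the high fat diet in females, and Alb, Apoa2, Serpina1a and Fgb were lower. In males Apoa2 and Fgb were higher, and Alb, Apoa1, Ttr and Serpina1a were lower. Over 5 Kupffer cell markers, the sums were 372 to 516 CPM against 223 to 327 in females, where 1 rose (Cd5l), and 175 to 364 against 206 to 292 in males. Of 5 stellate cell markers 2 rose in females (Col1a1 and Des), of 2 tested adipocyte markers 1 rose in males (Cidec) and of 5 cholangiocyte markers 1 fell in males (Krt19). No marker of endothelial cells, pancreatic acinar cells, red blood cells or T and B cells was called for diet. Of 5 kidney tubule markers, 4 were at 0 in every library (Slc34a1, Kap, Slc12a1 and Aqp2). The part of these shifts in the member values was not tested.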

How the data were processed

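Liver poly(A) RNA was sequenced on a NovaSeq instrument from NEBNext Ultra libraries, per the labels. The authors deposited expected counts per gene from RSEM and TPM, which are divided by transcript length and scaled to the same total in each library, per the file headers. STAR, RSEM and GRCm39 are named, without versions, in the submitters' processing notes. Counting strand is not given in the sources used here. Of the count entries, 4.89% were not whole, and all were rounded.

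Genes were filtered with filterByExpr over 4 groups. edgeR 4.0.16 (R 4.3.3) with TMM scaling and a robust quasi-likelihood test, with 1 mean per group over 16 libraries, gave 5 contrasts. A gene was called at a Benjamini-Hochberg adjusted p under 0.05 over 14781 genes, two-sided. SE is the size of the log2 fold change over the square root of F. limma 3.58.1 on log2(TPM + 1) and log2(TPM + 0.1), DESeq2 1.42.0, DESeq2 size factors, library totals, no filter, only the groups compared, a replicate block, leaving out each library and averaging male high fat diet replicates 2 and 3 were alternatives. The replicate number was not in the main fit. With group means removed, same-numbered libraries of different groups correlated at -0.159 to 0.180.

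Symbols were looked up by Ensembl identifier, version removed, in a reference table, and the older annotation GENCODE M21 gave exon overlaps. Named are all members and the 5 genes most like them. For diet and the interaction, up to 3 called genes of each list with the largest change are named (mean log2 CPM of at least 1). For sex this was done for arginine and ornithine metabolism alone. The other lists held sex calls too, which are not named apart from Slc25a12. Where a list had few calls, others were named after their values were seen. The members and lists were chosen with earlier results of these data known. The protein comparison was not run.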

Additional observations from a re-analysis of the deposited data

Results flagged for a closer look

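In the 36 groups of 4 libraries (9 members in 4 groups), 3 had a library far from the others, with a gap above 0.829 of the group's range. Chance flags about 1 in 20 groups. All 3 were in males on the normal diet. Ass1 in replicate 2 was at 4195 CPM, and its gap was 0.916 of the range. Cps1 in the same replicate 2 was at 4258 CPM, with a gap of 0.844 of the range. Nags in replicate 3 was at 31.2 CPM, with a gap of 0.891 of the range. With all libraries, Ass1 on the normal diet had a log2 fold change, female over male, of 0.37 and did not pass (edgeR adjusted p = 0.2475). Without male normal diet replicate 2 it was 0.63 (edgeR adjusted p = 0.046). That library held the highest Ass1 value of its group, so leaving it out raises this estimate by itself. The pass is therefore not read as a difference between the sexes.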

How the results depend on the processing

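Of 828 alternative values for the members' log2 fold changes, 729 kept their direction and side of the threshold, 11 lost a call, 17 gained one and 71 changed sign, and none of the last passed the test. Members called for diet in females were 2 after TMM, 0 on library totals and on both TPM scales. Beside Cps1 and Asl, DESeq2 called Arg1 in females (adjusted p = 0.0477), and edgeR on females alone called Ass1 (adjusted p = 0.049). In males DESeq2 gave 2. For sex on the normal diet the count was 1 on library totals, in DESeq2 and with only the groups compared. On the high fat diet it was 2 on library totals and 3 on both TPM scales. All genes called for diet in females were 2690 on library totals, 2970 on log2(TPM + 1) and 2812 on log2(TPM + 0.1). For the interaction they were 337 in DESeq2 and 58 with male replicates 2 and 3 averaged, against 100 after TMM, and for sex on the high fat diet 1958 with only the groups compared.

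Leaving out 1 library, members called in females ranged from 0 (without female normal diet replicate 1) to 3 (without female normal diet replicate 3), and for sex on the normal diet from 0 to 1 (without male normal diet replicate 2). All genes called ranged from 947 (without female high fat diet replicate 4) to 1647 for diet in females, from 1113 (without male normal diet replicate 3) to 1912 for diet in males, from 51 (without female normal diet replicate 2) to 176 (without male high fat diet replicate 1) for the interaction, from 1325 (without female normal diet replicate 2) to 2488 for sex on the normal diet and from 1974 (without male high fat diet replicate 4) to 3019 on the high fat diet.

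Signs of the members' log2 fold changes turned as follows, and the cause was not tested. On library totals the interaction was 0.027 for Glud1, 0.031 for Slc25a13 and 0.026 for Slc25a15, diet in females was 0.0896 for Glud1 and 0.0603 for Otc, diet in males was 0.062 for Glud1 and 0.0903 for Otc, and sex on the high fat diet was 0.0098 for Asl and 0.00403 for Slc25a15. On log2(TPM + 1) and on log2(TPM + 0.1) alike, the interaction was 0.046 for Ass1, 0.024 for Cps1, 0.095 for Glud1, 0.046 for Otc, 0.11 for Slc25a13 and 0.091 (0.092 on the latter) for Slc25a15. On these scales diet in females was 0.14 for Glud1, 0.11 for Otc and 0.041 for Slc25a15, diet in males was 0.042 for Glud1 and 0.063 for Otc, and sex on the high fat diet was 0.072 (0.073 on the latter) for Asl and 0.047 for Slc25a15. Averaging male high fat diet replicates 2 and 3 gave interactions of 0.014 for Ass1 and 0.037 for Slc25a13, and fitting males alone gave 0.00037 for Otc.

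Leaving out 1 library, the interaction ranged from -0.059 to 0.15 for Arg1, -0.34 to 0.024 for Ass1, -0.13 to 0.027 for Glud1, -0.14 to 0.041 for Slc25a13 and -0.17 to 0.0104 for Slc25a15. Diet in females ranged from -0.053 to 0.15 for Nags, and diet in males from -0.0901 to 0.041 for Glud1 and -0.075 to 0.089 for Otc. Sex ranged from -0.076 to 0.017 for Cps1, -0.16 to 0.0803 for Nags and -0.11 to 0.062 for Slc25a15 on the normal diet and from -0.034 to 0.15 for Slc25a13 on the high fat diet.

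With the replicate number as a block, members called for diet in females stayed at 2 and in the other comparisons at 0. All genes called were 1864 for diet in females, against 1700 without the block, and 1980 in males, against 1684. For sex they were 2685 against 2322 on the normal diet and 3445 against 3022 on the high fat diet, and for the interaction 101 against 100. Correlations between same-numbered libraries went both ways. Of 24 such pairs 4 were above 0.1, while others ran down to -0.159, and the median r was 0.0442. Of 16 libraries 5 correlated best with their own number, and no test of this was run. The 4 pairs above 0.1 were all between replicates numbered 1, with r up to 0.180. The remaining replicate 1 pairs were at 0.0508 and -0.128.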

Other observations

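The genes whose levels most resembled the mean profile of the 9 members over the 16 libraries, among 10818 candidates, were Cth (Pearson's r 0.932), Slc15a4 (0.925), Dynlt3 (0.924), Etnk2 (0.924) and N4bp2l1 (0.917). With group means removed, their r values were 0.908, 0.832, 0.928, 0.849 and 0.818. The genes were chosen on these same libraries with group differences left in, so their diet estimates below partly follow from that choice. The libraries share depth and scaling, so these are descriptions with no test. Etnk2, an ethanolamine kinase, had a log2 fold change for diet of -0.65 ± 0.18 in females (edgeR adjusted p = 0.0244) and -0.90 ± 0.18 in males (adjusted p = 0.00351). Cth, cystathionine gamma-lyase of cysteine synthesis, was at -0.56 ± 0.24 in females (adjusted p = 0.149) and -0.62 ± 0.24 in males (adjusted p = 0.109). Slc15a4, a lysosomal histidine and peptide transporter, was at -0.38 in females (adjusted p = 0.0896) and -0.47 in males (adjusted p = 0.0379). Dynlt3 was at -0.25 in females (edgeR adjusted p = 0.219) and -0.16 in males (adjusted p = 0.443). N4bp2l1 was at -0.76 in females (edgeR adjusted p = 0.0571) and -0.71 in males (adjusted p = 0.0744).

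In the mean profile of the members, as standard scores over the 16 libraries, male high fat diet replicates 1 and 4 were lowest (-1.36 and -1.19) and female normal diet replicates 1 and 2 highest (1.27 and 1.23). Of the 13 tested genes of arginine and ornithine metabolism, 2 were higher in females on the normal diet (Gamt and Agmat) and 2 lower (Amd1 and Asns), where 15.7% of all genes were called. On the high fat diet 3 were higher in females (Gatm, Agmat and Gamt) and 2 lower (Asns and Amd1), where 20.4% of all genes were called. Asns lay outside the naming rule and was named after its values were seen. Its diet estimates were imprecise, at 0.21 in females (edgeR adjusted p = 0.956) and -0.63 in males (adjusted p = 0.723). Gamt, guanidinoacetate methyltransferase of creatine synthesis, had a log2 fold change, female over male, of 0.99 ± 0.21 on the normal diet (edgeR adjusted p = 0.0041138) and 0.60 ± 0.21 on the high fat diet (adjusted p = 0.0467, lost in 9 of 17 alternatives). Gatm, the arginine to glycine amidinotransferase, was at 0.76 ± 0.17 on the high fat diet (adjusted p = 0.0048653) and at 0.19 on the normal diet (adjusted p = 0.468). Amd1 was at -0.71 on the normal diet (adjusted p = 0.0025132) and at -0.41 on the high fat diet (adjusted p = 0.0485, lost in 14 of 17), and Agmat, agmatinase, was at 0.56 (adjusted p = 0.0137) and 0.43 (adjusted p = 0.0391, lost in 5 of 17).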
